A study of Mus musculus with 10 samples.

Results

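The spleens of male ICR mice, an outbred stock, were compared at 28 and 4 months of age. The comparison used the 2 spleen arrays among the 10 of the series, and the other 8 read liver, jejunum, ileum and distal colon at the same ages. RNA was extracted from each animal, and equal amounts from 6 mice at 4 months or 9 mice at 28 months were mixed into 1 pool per age. The older mice were bought at 8 months of age and the younger at 2 months, all were kept singly under specific-pathogen-free conditions, and all ate the AIN-93 diet. Each pool was hybridised to a single Affymetrix array of mouse genes. On it, several short probes directed at the 3' part of a transcript form a probe set, which yields 1 signal. No allele, transgene or treatment distinguished the groups. Besides age, the groups differed in the age at purchase and the number of mice in the pool, and these differences cannot be told apart.

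The spleen filters blood and houses lymphocytes. Its white pulp holds B cell follicles, a T cell zone around small arteries and, at its border, the marginal zone with its own B cells and macrophages. The red pulp is a mesh of sinuses where macrophages clear old red cells and recycle their iron, and in mice it also keeps a store of blood-forming cells throughout life. In bulk tissue, fewer cells of a type and less RNA per cell cannot be told apart, so a ratio of a marker gene describes the RNA of the whole organ.

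Of 45101 probe sets on the array, 34958 named 1 gene, which gave 18194 genes. Signals are in arbitrary scaled units. The median over all arrays, 111 units, served as a floor, to which lower values were raised before a ratio was taken. In the spleen 11925 genes were above the floor at 1 age or both and are called measured. Each gene was represented by its brightest probe set. Every ratio below is the log2 of the 28-month signal divided by the 4-month signal, and a gene is said to have risen or fallen when it reached 2-fold. Where 1 age lay at the floor, the fold is a lower bound and is written with "at least". Since each age had 1 array, no ratio could be checked against a replicate and no test was possible. The probe sets of a gene gave the one internal check: in the 5143 genes with 2 or more measured sets, the SD of their ratios had a median of 0.143 and a 90th percentile of 0.338. That SD speaks of the probes and not of the mice.

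The label of the tissue was checked against defining genes. Ms4a1, which encodes the B cell antigen CD20, read 14092 units at 4 months and 12818 at 28 months. Cd3e, a chain of the T cell receptor complex, read 712 and 1095, and Spic, the transcription factor of red pulp macrophages, read 2047 and 1847. Tlx1, a homeobox gene needed for the spleen to form, read 285 and 287. Markers of other organs were low: Hoxb13 of the distal colon read 38 and 47, Fabp6 of the ileum 36 and 39, and Adipoq of fat cells 42 and 35. Albumin mRNA read 147 and 80, and Xist, which male cells do not express, was close to the floor at 103 and 116. On the array itself, the 18 probe sets of the hybridisation spikes averaged 0.61 higher at 28 months on the log2 scale. The poly-A spikes differed by 0.16, and the excess of 3' over 5' signal was 0.84 and 1.01 for actin and 0.89 and 1.01 for Gapdh. The share of these differences in the ratios below was not tested.

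Exocrine pancreas RNA was set aside first. Of 34 acinar genes on the array 26 were measured, and their summed signal was 85362 units at 4 months and 3937 at 28 months. Of the measured genes 23 fell, with a median ratio of -4.39. Cela2a, an elastase, read 8306 and 57 units, Cela1 10766 and 840, Prss2, a trypsinogen, 7390 and 168, and Clps, the lipase cofactor, 5355 and 23. The digestive genes were thus far lower in the older pool. Of the measured list members only Bhlha15 and Rbpjl, which encode transcription factors, were above 0, at 0.43 and 0.14. Which cells of the organ made their RNA was not tested. The pancreas lies against the spleen, and whether tissue of it came along at dissection was not tested. Of the hormone genes of the islets only Ins2 was measured, at 170 and 167 units. Without the acinar list 11899 measured genes remained. Pdia2, a pancreatic disulphide isomerase outside the list, read 365 and 126 units and remained among the genes that fell.

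In these 11899 genes the 2 ages lay close together. Genes that rose numbered 63, or 0.529% of those measured, and genes that fell numbered 26, or 0.219%. With the deposited values used without further scaling, 51 rose and 33 fell. At 1.5-fold the counts were 380 (3.19%) and 208 (1.75%). The median ratio was 0.01, with a 5th percentile of -0.44 and a 95th percentile of 0.49, and 52.0% of genes were above 0 and 48.0% below. Of the 63 genes that rose, 34 belonged to a list and 16 to the list of neutrophils and their precursors. That list holds 27 of the 11899 measured genes. Of the 26 that fell, 7 belonged to a list. Those outside the lists included, besides Pdia2, Gm11346 at -1.62, Cacna1e at -1.59, Mcoln3 at -1.56 and Cyp39a1 at -1.47. BC018473 at -1.29, Efr3b at -1.28, H2bc18 at -1.26 and Mirt1 at -1.19 were others. With the floor at percentile 75 Cacna1e had -0.36 and Mirt1 -0.23. All lists together, the acinar list included, matched 723 symbols among the 18194 genes, measured or not. The share of list members among the 11899 was not counted, so the 34 and the 7 have no matching share beside them. The lists were chosen with earlier results of these data known, so these counts are descriptions only. Among the 89 genes, 74 had a single measured probe set and 15 had several. The sets of all 15 had the same sign, but only 6 of the 9 that rose and 1 of the 6 that fell had every set past 1.5-fold. This check covers only genes called by their brightest set. In 44 other genes a set passed 2-fold while the brightest set did not, and these were not called.

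**Figure D1:**
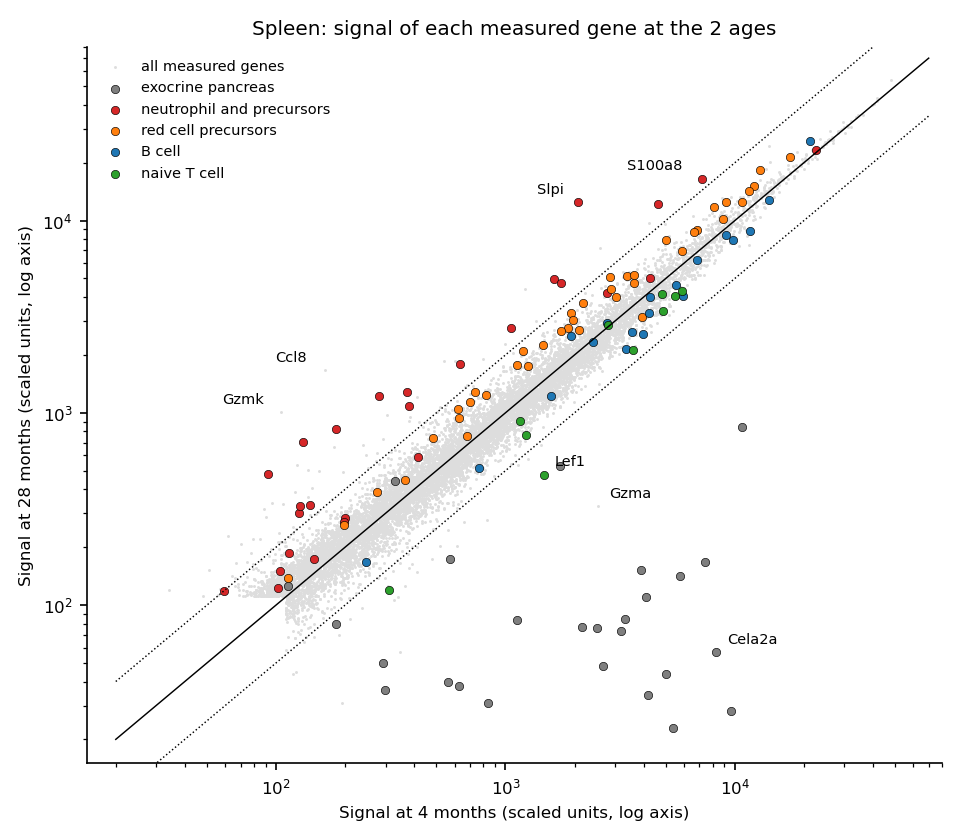
Signal of each measured gene in the spleen at 4 months (x axis) and 28 months (y axis), in scaled units on log axes, 1 point per gene. The solid line marks equal signal and the dotted lines 2-fold. Most grey acinar genes fall far below the lines, and 16 of 27 red neutrophil genes lie above 2-fold. Of the 40 orange red cell precursor genes, 39 lie above equality but inside 2-fold.

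The neutrophil list had the highest median of the lists described. Of its 35 genes 30 were on the array and 27 were measured, and all 27 had ratios above 0. Of them 16 rose and none fell, and the median was 1.26, against 0.01 for all measured genes. The genes group by the stage at which a neutrophil makes them. Those of the early precursor, stored in the azurophil granules, were Mpo, myeloperoxidase, at 282 units at 4 months and 1221 at 28 months, a 4.33-fold rise, Prtn3, proteinase 3, at 182 and 824, a 4.52-fold rise, and Ctsg, cathepsin G, at 92 and 481, a rise of at least 4.34-fold. Elane, the elastase next to Prtn3 in the genome, read 114 and 186, a ratio of 0.70. The early granule genes therefore did not reach 2-fold together, and all but Mpo read less than 2 floors at 4 months. With the floor at percentile 75 of all signals, 481 units, the ratio of Mpo was 1.34, and that of Prtn3, 0.78, no longer reached 2-fold. Ctsg was no longer measured under that floor.

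The genes of later granules named next rose, all but Mmp8 from higher signals than the early ones. Ngp, neutrophilic granule protein, read 1622 and 4985 units, a 3.07-fold rise. Camp, the cathelicidin, read 1749 and 4733, and Ltf, lactoferrin, 631 and 1786. Lcn2, the siderophore-binding lipocalin, read 372 and 1285, a 3.45-fold rise. Chil3 read 1061 and 2776, and Mmp8, the neutrophil collagenase, 126 and 301. Each of these was higher in the older pool by 2-fold or more. Genes of mature cells followed: S100a8 read 7194 and 16546 units and S100a9, its calcium-binding partner, 4634 and 12126. Slpi, an inhibitor of neutrophil elastase, read 2078 and 12439, a 5.99-fold rise and the largest of the list, and Wfdc21, of the same inhibitor family, read 131 and 704, a 5.36-fold rise, which under the floor at percentile 75 was a ratio of 0.55. Il1r2, the decoy receptor of interleukin 1, read 127 and 326, and Hp, haptoglobin, 380 and 1082. The receptors of mature neutrophils had smaller ratios, 0.46 for Cxcr2 and 0.49 for Csf3r, and Mmp9 had 0.50. Lyz2, lysozyme, which macrophages also make, read 22640 and 23381. Only 1 of the 27 genes had more than 1 measured probe set, so the probe check hardly reaches this list.

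Promoters are shown for the 3 measured neutrophil genes with the highest ratios among those in the RefSeq promoter table, because the list moved together. Each runs from 250 bases before the start of the gene to 50 after it, in GRCm38.p6, 5' to 3' on the strand of the gene. Capitals mark GATAA, a core read by GATA factors, GAGGAA, a core read by the myeloid factor PU.1, and TTNNGCAA, a form read by C/EBP factors, on either strand, with N for any base. Slpi lies at chr2:164356458-164356757 on the minus strand, Prtn3 at chr10:79879417-79879716 on the plus strand and Ctsg at chr14:56102525-56102824 on the minus strand.
Slpi: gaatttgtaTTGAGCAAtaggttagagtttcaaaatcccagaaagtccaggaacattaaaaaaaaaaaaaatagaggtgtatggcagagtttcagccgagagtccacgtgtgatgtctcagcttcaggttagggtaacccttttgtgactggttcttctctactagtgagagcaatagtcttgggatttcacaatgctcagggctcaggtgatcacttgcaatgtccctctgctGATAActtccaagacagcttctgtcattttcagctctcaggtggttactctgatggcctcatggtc
Prtn3: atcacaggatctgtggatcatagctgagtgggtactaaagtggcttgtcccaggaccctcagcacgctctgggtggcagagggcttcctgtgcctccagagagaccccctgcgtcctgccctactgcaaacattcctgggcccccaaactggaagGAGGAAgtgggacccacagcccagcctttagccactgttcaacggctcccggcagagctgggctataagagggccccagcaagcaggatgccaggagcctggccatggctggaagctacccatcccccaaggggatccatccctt
Ctsg: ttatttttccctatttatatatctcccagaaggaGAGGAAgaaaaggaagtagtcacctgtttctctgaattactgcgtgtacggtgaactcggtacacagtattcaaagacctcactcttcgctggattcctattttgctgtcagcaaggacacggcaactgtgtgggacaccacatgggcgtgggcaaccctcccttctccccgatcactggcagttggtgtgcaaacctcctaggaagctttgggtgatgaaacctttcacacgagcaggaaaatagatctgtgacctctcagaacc
Prtn3 and Ctsg each held GAGGAA once, and Slpi held GATAA and TTNNGCAA once each. Of the 27 neutrophil genes 24 had a promoter in the table. GAGGAA was in 66.7% of them, against 28.3% of all 32851 promoters and 26.8% of those of 9622 genes measured in the spleen. For TTNNGCAA the shares were 37.5%, 10.8% and 8.06%, and GATAA was in 6 of the 24, against 25.4% and 16.2%. The 3 motifs were chosen after values and the matches of some promoters were seen, and the list with earlier results known. The shares are therefore descriptions only, and no difference between them was tested. These matches describe letters in a window and not bound sites.

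Red cell precursors had a smaller and more even shift. Of 51 listed genes 42 were on the array and 40 were measured. None reached 2-fold, 39 were above 0 and 16 were past 1.5-fold, with a median of 0.52. Gata1, the master factor of the lineage, read 623 units at 4 months and 1042 at 28 months. Hbb-b2, a beta globin, read 2850 and 5066, Epb42, a protein of the red cell membrane skeleton, 733 and 1289, and Rhag, a membrane ammonia channel, 1198 and 2095. Their ratios lay from 0.74 to 0.83. Cpox, an enzyme of haem synthesis, read 2173 and 3722, Cldn13 1923 and 3292, and Tfrc, the transferrin receptor that brings iron into precursors, 8116 and 11776. Smaller ratios came from Alas2, the first enzyme of haem synthesis in red cells, at 0.38, Hba-a2, an alpha globin, at 0.29, and Epor, the erythropoietin receptor, at 0.17. The one gene below 0 was Mfhas1 at -0.32. In all 16 members with several measured probe sets, the sets had the same sign.

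Megakaryocyte and platelet genes behaved alike in size. Of 23 measured members 22 were above 0, 2 were past 1.5-fold and none reached 2-fold, with a median of 0.45. Tubb1, the platelet tubulin, read 1474 and 2382 units, Selp, P-selectin, 412 and 652, Gp1bb, part of the von Willebrand factor receptor, 1175 and 1725, and Alox12, the platelet lipoxygenase, 513 and 762. Pf4, platelet factor 4, had a ratio of 0.46 and Itga2b, the platelet integrin, 0.50. The 6 members with several sets each had sets of the same sign.

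Genes of cell division were above 0 in 34 of 34 measured members, 17 of them past 1.5-fold and none past 2-fold, with a median of 0.61. Plk1, a mitotic kinase, read 308 and 580 units, Kif2c, a spindle motor, 614 and 1156, Bub1b, a spindle checkpoint kinase, 529 and 986, and Tpx2 493 and 919. For Bub1b both probe sets lay between 0.85 and 0.90. Genes of DNA replication were also above 0, with 0.56 for Mcm2, 0.67 for Mcm6 and 0.69 for Rrm2, and 0.21 for Pcna was the lowest of the list. All 21 members with several sets had sets of one sign. The red cell, platelet and division medians lay from 0.45 to 0.61, beside 0.01 for all genes. The hybridisation spikes differed by 0.61 and the poly-A spikes by 0.16. Whether these spike differences bear on the medians was not tested.

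**Figure D2:**
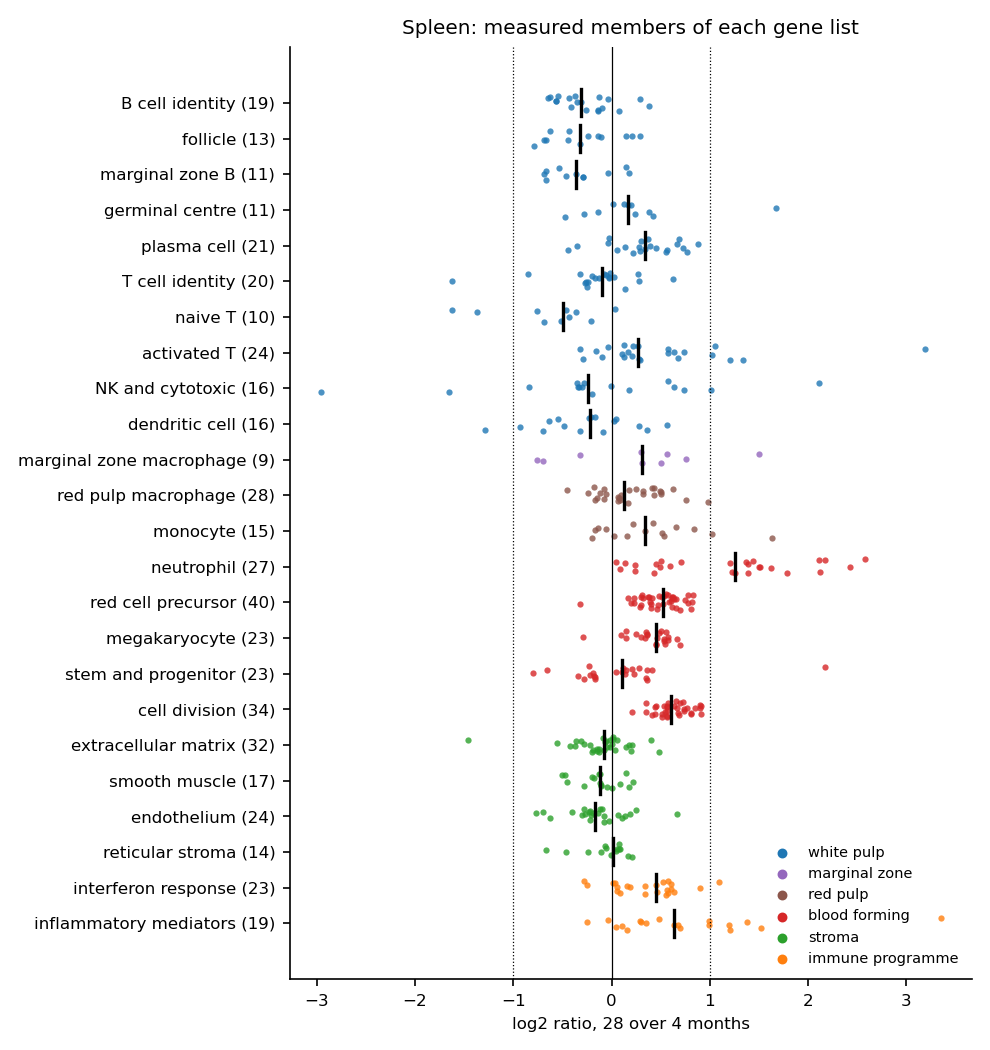
Log2 ratio of 28 over 4 months in the spleen (x axis) for the measured members of each gene list, 1 point per gene, with their number in brackets and a black bar at the median. Dotted lines mark 2-fold. Neutrophil genes have a median of 1.26 and range widely, and B cell and naive T cell genes lie mostly below 0. Red cell precursor and division genes sit in narrow bands above 0, except for the red cell list member Mfhas1.

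Stem and progenitor genes moved in no common direction, with 13 of 23 measured members above 0 and a median of 0.10, which was -0.12 with the floor at percentile 75. The one that rose was Prtn3, which the neutrophil list also holds. Sox4, a factor of early lymphoid and other progenitors, read 1983 and 1137 units by its brightest set, with another set at 0.07, and Kit, the stem cell factor receptor, 510 and 323. Cdk6 and Adgrg1 had ratios of 0.36 and 0.41. Of 8 measured genes of mast cells, basophils and eosinophils, Cpa3, a mast cell protease, rose, from 62 to 228 units, at least 2.06-fold.

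Promoters of the 2 red cell genes with the highest ratios among those in the table are shown with the same capitals. Epb42 lies at chr2:121036828-121037127 on the minus strand and Rhag at chr17:40810899-40811198 on the plus strand.
Epb42: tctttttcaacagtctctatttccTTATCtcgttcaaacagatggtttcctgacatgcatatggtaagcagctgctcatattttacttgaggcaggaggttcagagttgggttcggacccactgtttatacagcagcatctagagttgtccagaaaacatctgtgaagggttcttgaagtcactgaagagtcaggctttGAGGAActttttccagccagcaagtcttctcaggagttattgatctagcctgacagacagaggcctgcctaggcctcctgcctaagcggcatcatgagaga
Rhag: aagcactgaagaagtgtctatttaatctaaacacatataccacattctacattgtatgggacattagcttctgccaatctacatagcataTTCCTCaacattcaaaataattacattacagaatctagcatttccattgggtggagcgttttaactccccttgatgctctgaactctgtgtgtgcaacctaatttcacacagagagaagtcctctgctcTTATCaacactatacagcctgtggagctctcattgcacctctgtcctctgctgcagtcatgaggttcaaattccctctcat
Both held GATAA once, on the opposite strand to that printed, and GAGGAA once. GATAA was in 53.6% of the 28 promoters found for the red cell list, against 25.4% of all promoters and 16.2% of those of genes measured in the spleen. GAGGAA was in 35.7% and TTNNGCAA in 3.57%. The limits given for the neutrophil promoters, on the choice of motifs and list, hold for these shares too.

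In the white pulp, genes of resting B cells were mostly lower and none reached 2-fold. Of 19 measured genes of B cell identity 16 were below 0, with a median of -0.31, or -0.14 over members with several probe sets. Cd37, a tetraspanin, read 3361 units at 4 months and 2150 at 28 months, Fcrla 3982 and 2573, and Cd79a, a signalling chain of the B cell receptor, 768 and 519. Pax5, the factor that holds B cell identity, read 247 and 167. Ms4a1 had a ratio of only -0.14, Ebf1, an early B cell factor, -0.03, and Cd24a and Ikzf3 were above 0 at 0.29 and 0.38, though another set of Ikzf3 was at -0.32. So the markers did not move by one amount, and 5 of the 7 with several probe sets had sets of one sign.

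Follicle genes had a median of -0.32, with 10 of 13 below 0. Fcer2a, the low-affinity IgE receptor CD23 of follicular B cells, read 1457 and 841 units, with ratios of -0.98 and -0.79 from its probe sets. Cr2, complement receptor 2, read 5142 and 3244, Ccr7, the receptor that leads cells to the T cell zone, 1231 and 762, and Ltb, lymphotoxin beta, 11479 and 7432. Cxcl13, the attractant of B cells in follicles, read 10551 and 8929, and its receptor Cxcr5 had a ratio of -0.32. Marginal zone B cell genes had a median of -0.36, with 9 of 11 below 0. Cd1d1, which presents lipids, read 2031 and 1278, Dtx1, a target of Notch signalling, 2646 and 1644, and S1pr3, a sphingosine phosphate receptor, 5222 and 3607. Every measured member of the 3 B cell lists stayed short of 2-fold by its brightest set.

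Genes of B cells that have met antigen had medians above 0. Rgs13, a regulator of chemokine signalling that marks germinal centre B cells, rose from 305 to 973 units, 3.19-fold, a ratio of 1.68 that was 1.02 with the floor at percentile 75. It was the only one of 11 measured germinal centre genes to do so: S1pr2, which keeps cells in the germinal centre, read 276 and 359, Fas 265 and 355, and Bcl6, the factor of the germinal centre, had a ratio of -0.14. Genes used to describe age-associated B cells had a median of 0.23, with Nt5e at 489 and 847 units and Cxcr3 at 628 and 1004. Tbx21, the factor T-bet, read 307 and 374, and Itgax 583 and 708. None of the 10 measured genes of this list reached 2-fold. Its members Cxcr3 and Tbx21 also stand in the activated T cell list, and Itgax in the dendritic cell list.

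Plasma cell genes were above 0 in 17 of 21 measured members, 5 of them past 1.5-fold, with a median of 0.35 and none at 2-fold. Sdc1, the plasma cell surface marker CD138, read 1005 and 1658 units. Creld2 and Derl3, which help fold and clear secreted proteins, read 1643 and 3016 and 313 and 533. Jchain, which joins IgA and IgM units, read 18599 and 22755, and Xbp1, the factor of secretory cells, had a ratio of 0.30. Among antibody genes Igha, the heavy chain of IgA, read 14023 and 24455, with 3 probe sets from 0.80 to 1.23. The variable gene Igkv6-20 rose from 411 to 1202 units, 2.92-fold. Other antibody genes did not rise: Ighg3, a heavy chain of IgG, read 8089 and 7760. The sets of Iglv1 ran from -0.33 to 0.41 and those of Igk from -0.09 to 0.51. The antibody genes were picked after values were seen. Ighm showed how far probe sets can part. Its brightest set read 47911 and 53650, a ratio of 0.16, while another read 1242 and 10204, a ratio of 3.04. Its 9 sets spanned that whole range, and what each set reads was not tested.

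**Figure D3:**
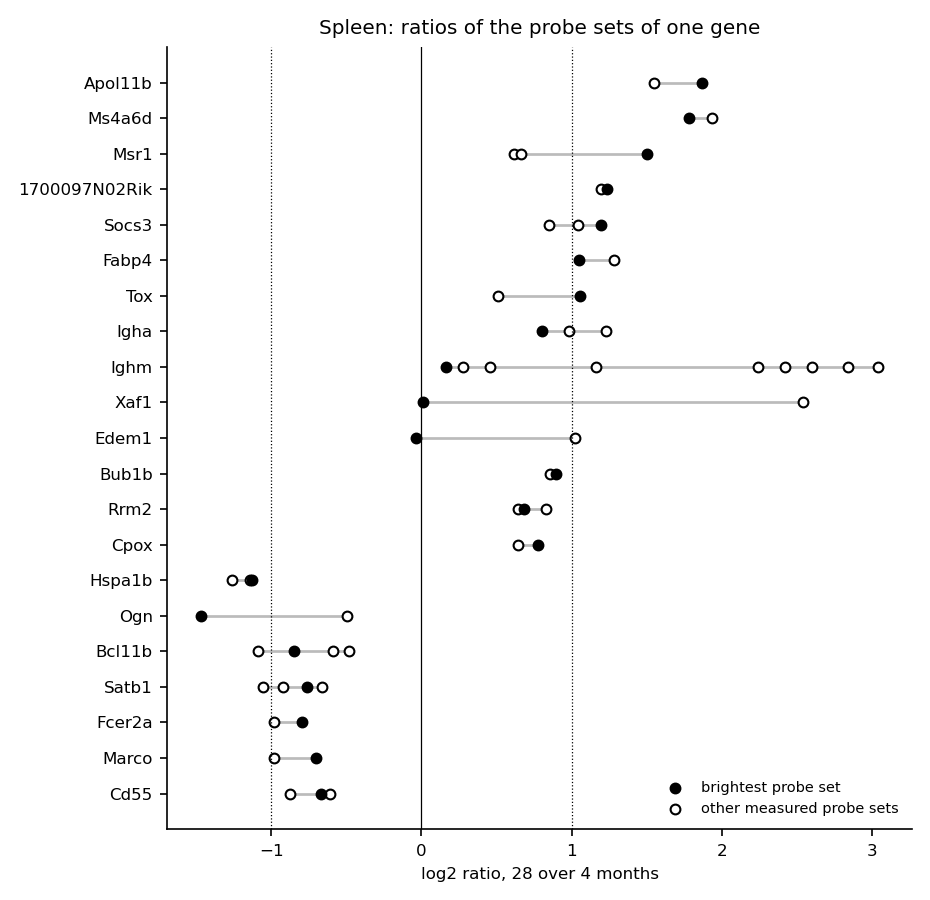
Log2 ratio of 28 over 4 months in the spleen (x axis) for every measured probe set of selected genes, with the brightest set filled. Dotted lines mark 2-fold. The sets of Ms4a6d and Hspa1b lie together past 2-fold, while those of Ighm run from 0.16 to 3.04 and those of Xaf1 from 0.01 to 2.54.

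T cell identity genes had a median of -0.10, with 15 of 20 below 0. Cd3e, Cd3g and Cd3d, chains of 1 receptor complex, had ratios of 0.62, -0.02 and -0.26. Cd4 and Cd8a, which mark helper and cytotoxic cells, had -0.06 and 0.26, though the 4 sets of Cd8a ran from -0.40 to 0.26. The receptor genes thus gave no common shift. Genes of naive T cells were lower in 9 of 10 measured members, with a median of -0.49. Lef1, a factor of naive cells, fell from 1471 to 476 units, 3.09-fold, and Dapl1 fell from 311 to 120 units, 2.58-fold. Satb1, a chromatin organiser, read 3601 and 2122, with 4 sets from -1.05 to -0.66. Bcl11b, a T cell factor, read 2545 and 1414, with 4 sets from -1.09 to -0.48, and Klf2, which keeps naive cells in circulation, 4859 and 3390. Il7r, the interleukin 7 receptor, had 0.04.

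Genes of activated and memory T cells were above 0 in 19 of 24 measured members, with a median of 0.27, and 5 rose. The median was 0.57 with the floor at percentile 25. Gzmk, a granzyme of memory cytotoxic cells, read 105 units at 4 months and 1008 at 28 months, at least a 9.11-fold rise, with a ratio of 1.07 in place of 3.19 under the floor at percentile 75. Ctla4, an inhibitory receptor, rose from 195 to 493, Ccl5, a chemokine of cytotoxic cells, from 4229 to 9730, Tox, a factor of chronically stimulated cells, from 141 to 293, and Sostdc1 from 122 to 248. Tox had a second set at 0.51. Pdcd1, the receptor PD-1, had a ratio of 0.63, Lag3 0.57 and Eomes 0.57, whereas Havcr2 had -0.32, Klrg1 -0.03 and Cd44 0.21. In the regulatory T cell list 6 of 9 were above 0, with a median of 0.30, or 0.04 with the floor at percentile 75. Foxp3 and Il2ra, which the list holds, were not among its measured genes. Besides Ctla4, which the activated list also holds, the largest ratio of the regulatory list came from Tnfrsf4, the receptor OX40, at 602 and 1014 units.

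Granzymes and natural killer genes split. Gzma, a granzyme of natural killer and cytotoxic T cells, fell from 2539 to 327 units, 7.78-fold, while its neighbour on the chromosome, Gzmk, rose. Ncr1, the natural killer receptor NKp46, fell from 347 to 57 units, at least 3.14-fold. Gzmm rose from 123 to 532, 4.31-fold, and Gzmb from 176 to 354, 2.01-fold. Receptors shared by natural killer cells lay between, at -0.34 for Klrd1, -0.33 for Klrk1 and -0.30 for Klrc1, and Prf1, perforin, read 397 and 394. Of 16 measured genes in the list 10 were below 0, 2 rose and 2 fell. Each of the 4 granzymes rests on a single measured probe set, and with the floor at percentile 75 Gzmm had a ratio of 0.15 and no longer counted as risen, while the list median turned from -0.24 to 0.15.

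Gzma and Gzmk lie next to each other on chromosome 13 and are printed because they went opposite ways, with the same capitals. Gzma lies at chr13:113100932-113101231 and Gzmk at chr13:113180916-113181215, both on the minus strand.
Gzma: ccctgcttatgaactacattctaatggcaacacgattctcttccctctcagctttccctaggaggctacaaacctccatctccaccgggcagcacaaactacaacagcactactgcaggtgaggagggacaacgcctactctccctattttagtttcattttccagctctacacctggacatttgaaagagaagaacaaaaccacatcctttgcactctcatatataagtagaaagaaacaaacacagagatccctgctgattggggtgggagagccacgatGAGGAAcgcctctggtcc
Gzmk: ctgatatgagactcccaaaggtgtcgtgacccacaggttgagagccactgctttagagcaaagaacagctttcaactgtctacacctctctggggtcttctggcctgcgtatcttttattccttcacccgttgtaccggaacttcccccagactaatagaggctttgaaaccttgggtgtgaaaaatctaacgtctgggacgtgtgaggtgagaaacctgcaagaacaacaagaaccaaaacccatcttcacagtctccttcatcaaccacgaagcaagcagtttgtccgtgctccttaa
Gzma held GAGGAA once and Gzmk held none of the 3 motifs in this window.

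**Figure D4:**
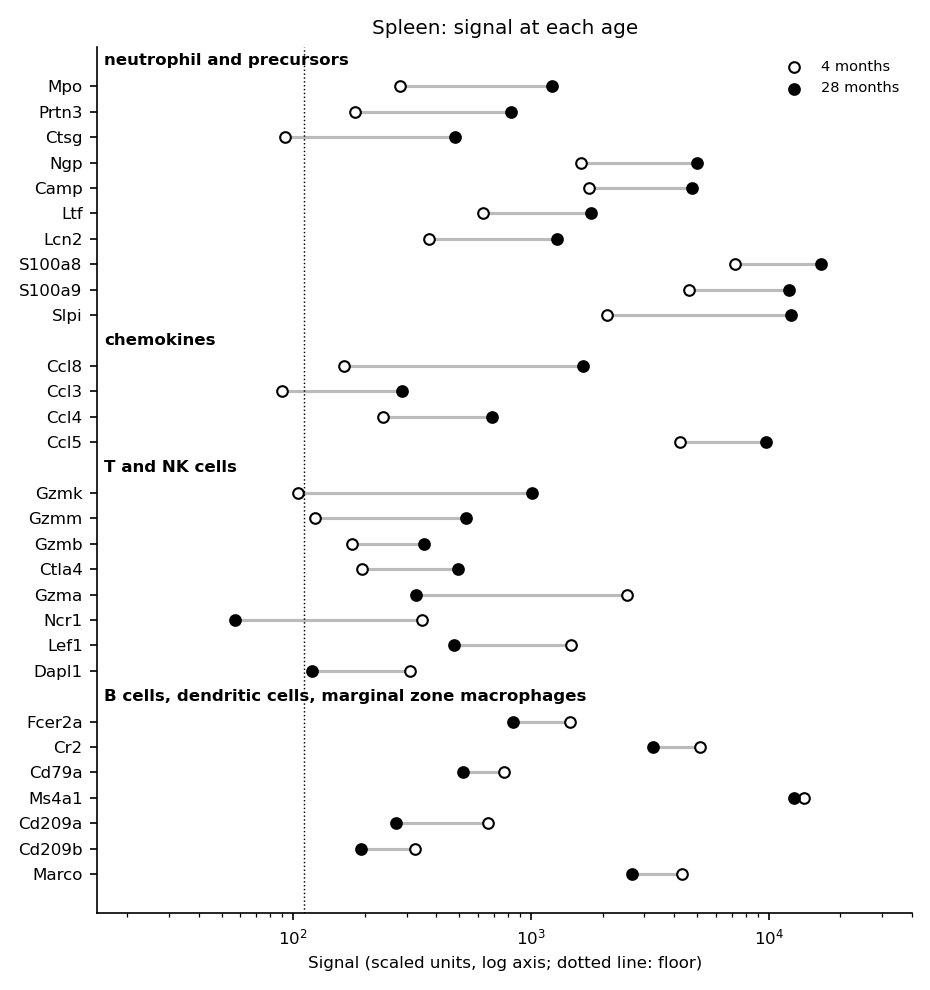
Signal at 4 months (open) and 28 months (filled) in the spleen for selected genes, in scaled units on a log axis (x axis), with the floor of 111 units dotted. Neutrophil and chemokine genes are higher at 28 months, the granzymes part in both directions, and the plotted B cell and dendritic cell genes, Cd209b and Marco are lower.

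Dendritic cell genes were below 0 in 11 of 16 measured members, with a median of -0.22. Cd209a, a lectin of monocyte-related dendritic cells, fell from 660 to 271 units, 2.44-fold, though its ratio was -0.46 with the floor at percentile 75. Ccr9, which plasmacytoid dendritic cells carry, read 888 and 467, with both sets below 0, and Siglech, a marker of the same cells, 531 and 340. Xcr1 and Zbtb46, of conventional dendritic cells, read 302 and 208 and 616 and 379, but the other 2 measured sets of Zbtb46 were above 0, at 0.11 and 0.14. The shared factors Irf8 and Batf3 had -0.08 and 0.04.

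Macrophages of the marginal zone gave mixed ratios. Marco, the scavenger receptor of its outer ring, read 4302 units at 4 months and 2646 at 28 months, with sets at -0.98 and -0.70, and Cd209b, the lectin SIGN-R1 of the same cells, 325 and 192. Siglec1, of the inner ring, had sets at 0.29 and -0.03. Of the 9 measured genes 6 were above 0, with a median of 0.31, or 0.08 with the floor at percentile 75. Msr1, another scavenger receptor, rose from 144 to 407 by its brightest set, 2.83-fold, but its other 2 sets gave 0.62 and 0.67. Clec7a, the glucan receptor dectin-1, read 1171 and 1984.

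Red pulp macrophage genes went both ways by small amounts. Spic had a ratio of -0.15, with a second set at 0.02, Hmox1, which breaks down haem, read 3272 and 2897 units, Slc40a1, the iron exporter ferroportin, 12422 and 11751, with a second set at -0.37, and Adgre1, F4/80, had 0.08. Cd163, the receptor for haemoglobin bound to haptoglobin, had -0.45 and Fcna -0.24, while Cd5l had 0.51 and Blvrb, a biliverdin reductase, 0.51. Over 28 measured members the median was 0.13 and none reached 2-fold. Higher ratios came from phagocyte genes not limited to these cells: Gpnmb read 150 and 296 units, Fcgr1, an IgG receptor, 159 and 269, and C1qb, of the first complement component, 3074 and 4752. Iron genes had a median of 0.06. The 2 of 20 that rose, Hp and Lcn2, also stand in the neutrophil list, and Fth1, ferritin heavy chain, had 0.04.

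Monocyte genes had a median of 0.34, and 2 of 15 rose. With each gene read as the median of its sets, not by its brightest, the list median was 0.16, and only 2 of the 5 members with several sets had sets of one sign. Fcgr4, an IgG receptor of monocytes and macrophages, rose from 600 to 1859 units, 3.10-fold, and F13a1 from 444 to 901, 2.03-fold. Fcgr3, next to Fcgr4 in the genome, had 0.50, and Fcgr2b on its other side -0.04. Ccr2 and Cx3cr1, receptors of the main monocyte classes, had 0.42 and 0.16, but the other 2 sets of Ccr2 were at 0.07 and -0.30, and Plac8 had -0.20. Ms4a6d, outside the lists, rose from 541 to 1860 units, with sets at 1.78 and 1.93.

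Inflammatory mediators had a median of 0.64, with 17 of 19 above 0 and 5 that rose. Ccl8, a chemokine made by macrophages, rose from 163 to 1662 units, 10.2-fold, the highest ratio among genes above the floor at both ages; with the floor at percentile 75 its ratio was 1.79 in place of 3.35. Ccl4 rose from 239 to 684, and Ccl3 from 90 to 287, at least 2.59-fold. Socs3, the feedback inhibitor of cytokine signalling, rose from 997 to 2284, with 3 sets from 0.85 to 1.20. The cytokines themselves moved less, at 0.69 for Il1b and 0.16 for Tnf. Ccl5, Ccl9, Ccl6, Ccl3, Ccl4, Wfdc17, Wfdc18 and Wfdc21 follow each other on chromosome 11, and all 8 were above 0 and 5 rose. This run of genes was looked up after their values were known.

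Interferon response genes were above 0 in 21 of 23 measured members, with a median of 0.45, but only Oas1a rose, from 420 to 898 units. Over members with several probe sets the median was 0.033. Ifit1 read 165 and 309, Irf7, the factor that amplifies the response, 230 and 348, and Cxcl9 1869 and 2906, while Cxcl10 had -0.25 and Gbp2 0.03. Apol11b, outside the list, rose from 1214 to 4419 units, with sets at 1.55 and 1.86. Genes that present antigen moved little: class I genes had a median of 0.17 and class II genes -0.17, with Cd74, the invariant chain, at 12034 and 10057. In the complement list, with a median of 0.24, Cd55, which protects cells from complement, read 1721 and 1084, and all 3 sets were below 0.

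Stromal lists lay near the median of all genes. Matrix genes had a median of -0.07, with 21 of 32 below 0. Col1a1 and Col3a1, the main fibrillar collagens, had ratios of -0.02 and -0.22, and Postn, periostin, read 1374 and 932 units. Only Ogn, a small proteoglycan, fell, from 477 to 173 by its brightest set, 2.76-fold, with a second set at -0.49. Smooth muscle genes had a median of -0.11 and none of 17 reached 1.5-fold, Acta2 standing at -0.18. Endothelial genes had a median of -0.17, with 18 of 24 below 0, Sox17, an arterial factor, at 226 and 147, and Selp, which platelets share, the highest. Reticular stroma had a median of 0.02, with Il7, which sustains T cells, at 378 and 238. Genes that build the spleen and line it had a median of -0.03.

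Cell stress genes gave 1 call. Hspa1b, an inducible heat shock protein, fell from 1253 to 573 units, and its 3 sets lay between -1.26 and -1.13, while its near copy Hspa1a had -0.18, and reads of such copies by one probe set cannot be told apart here. Cdkn1a, the p53 target p21, read 442 and 662, and Cdkn2c, another cell cycle inhibitor, 1268 and 1944. The median of the p53 and senescence list was 0.18. Fabp4, the fatty acid carrier of fat cells and macrophages, rose from 520 to 1074 with both sets past 2-fold, though Adipoq stayed under the floor at both ages.

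The same pools of mice were read in the other tissues, so these values are not independent of the spleen's. Of the 63 genes that rose in the spleen, 35 were measured in liver and 15 of them were 2-fold higher there too, beside 1.28% of all genes measured in liver. In jejunum it was 3 of 41, beside 0.244% of all genes measured there, in ileum 3 of 38, beside 0.881%, and in distal colon 3 of 34, beside 0.502%. Of the genes that fell in the spleen 10 were measured in liver and 0 fell there, a count that says little beside the 0.167% of all genes that did. In jejunum 1 of 15 fell, beside 1.02% of all genes, in ileum 2 of 14, beside 1.66%, and in distal colon 1 of 11, beside 0.526%. The neutrophil list had medians of 1.26 in spleen, 0.44 in liver, 0.12 in jejunum, -0.02 in ileum and -0.09 in distal colon. Lcn2 read 188 and 9366 units in liver, and Prtn3 81 and 1127, while Mpo had a liver ratio of 0.10. Red cell genes had a median of 0.52 in spleen and between -0.09 and 0.08 elsewhere. Division genes had 0.61 in spleen, 0.47 in jejunum, 0.20 in liver, 0.04 in ileum and 0.02 in distal colon. Gzma, which fell in the spleen, read 1441 and 597 in ileum and 2828 and 3173 in jejunum. No test of these differences between tissues was possible with 1 array per group.

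**Figure D5:**
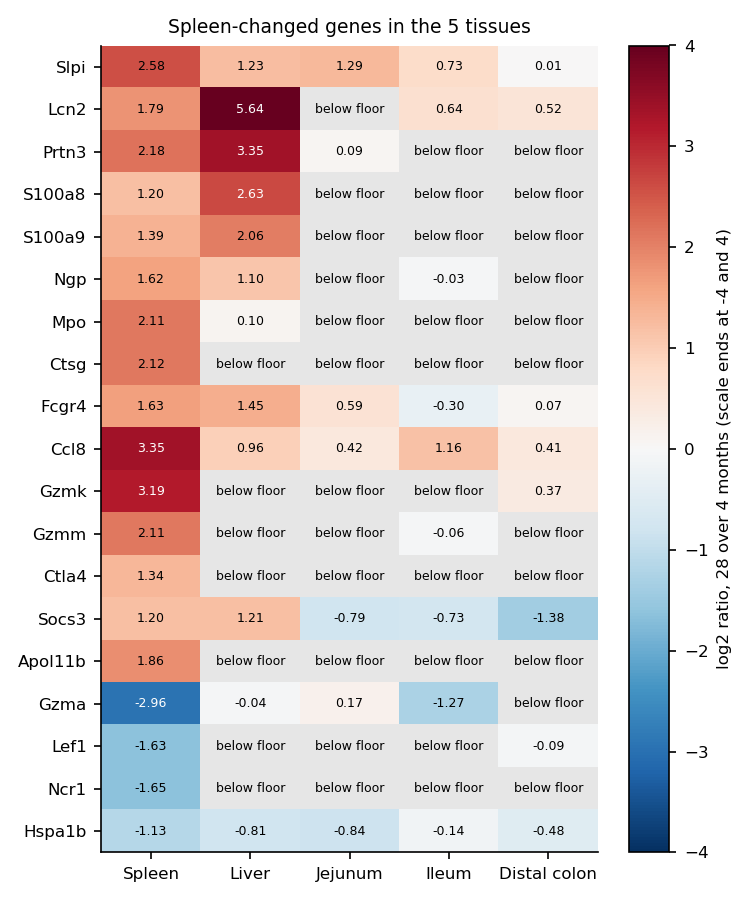
Log2 ratio of 28 over 4 months for selected spleen genes (rows) in the 5 tissues (columns), coloured from blue (lower at 28 months) to red (higher). Grey cells were under the floor at both ages, and the spleen values of Gzmk, Ctsg and Ncr1 are bounds. Lcn2, Prtn3, S100a8 and S100a9 are higher in liver than in any other column, while Mpo is high in spleen alone of the tissues where it was measured.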

How the data were processed

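RNA of 5 tissues was measured at 4 and 28 months on 10 arrays, 1 per tissue and age. Values were taken as deposited by the authors, as log2 signals, 1 per probe set. The submitters' processing notes name MAS5 and affy, with no version or role, and their normalisation was not stated in the sources used here. The deposited spleen columns had medians of 5.52 at 4 months and 5.48 at 28 months. The base of the logarithm, 2, was inferred from how far the values range.

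The logarithm was undone, and the signals of an array were scaled to a mean of 500 units, trimmed by 2% at each end. The median of all signals, 111 units, was the floor. About 50.5% and 50.9% of spleen probe sets lay above it at 4 and 28 months. Signal units are arbitrary, and the number of arrays limits the precision. Probe sets were named from the platform annotation: 34958 named 1 gene, 932 named several and were left out, and 9211 were not in the annotation and were not analysed here. The brightest set stood for its gene, chosen over all 10 arrays. A call was 2-fold, a description with no test.

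The 39 gene lists hold 810 symbols, of which 723 were matched on the array, and a list was described from 5 measured members. Members and lists were chosen with earlier results of these data known. Genes were chosen for naming by 5 parts of a rule, applied after the acinar list was set aside, and not every gene chosen is described above. The first took the 15 largest ratios per direction among genes past 2-fold with a signal of 2 floors and all sets past 1.5-fold. Then came the 10 largest with several sets, up to 6 members per list and any member past 2-fold, the defining markers, and genes with sets past 2-fold in opposite directions, of which there were 0. Other genes of the lists, the runs of neighbouring genes, the 3 motifs and the plan to print promoters were chosen after values were seen, motif matches of some promoters included. The printed promoters were then taken by ratio, whatever their matches, with the granzyme pair added. Promoters and gene order are from RefSeq (GRCm38.p6).

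Alternatives were other floors, 16 units added in place of a floor, 4 other scalings, the median over a gene's sets, no sets with the suffix _s_at or _x_at, other thresholds, several agreeing sets, and the acinar list kept in. The steps were tested on simulated data. Python 3.11.15, numpy 2.4.6, pandas 2.3.3, statsmodels 0.14.6 and matplotlib 3.10.9 were used.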

Additional observations from a re-analysis of the deposited data

Results flagged for a closer look

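Among genes that rose in the spleen, 4 reached 2-fold in the opposite direction in another tissue of the same mice. Socs3, the cytokine feedback inhibitor, had a log2 ratio of 1.196 in spleen and -1.384 in distal colon, where it read 916 units at 4 months and 351 at 28 months. Gzmb, granzyme B, had 1.01 in spleen and -1.376 in ileum, where it read 508 and 196 units. Mt2, a metallothionein that binds zinc, had 1.149 in spleen and -1.185 in distal colon. Bcl2l15, a relative of Bcl2, had 1.52 in spleen, with the 4-month signal at the floor, and -3.047 in jejunum. The differences between tissues were not tested, since each tissue and age had 1 array.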

How the results depend on the processing

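No paired analysis was possible because each age had 1 array. For 37 list medians, 413 of 429 values under other settings stayed within 0.143, the median SD between probe sets, and 16 moved further. The sign changed in 8 values, of 4 lists. With the floor at percentile 75 the natural killer median turned to 0.15 and that of progenitors to -0.12. The other 6 were of reticular stroma and the spleen-building genes, which ran from -0.09 to 0.02 and from -0.07 to 0.04. For 34 named genes 305 of 328 ratios stayed within it, 23 moved and none changed sign. A gene not measured under a setting has no ratio there and is not counted. With the floor at percentile 75, Ctsg, Ncr1, Dapl1 and Msr1 were among the genes left out in this way. The neutrophil median ran from 1.20 to 1.36, the red cell median from 0.41 to 0.56 and that of division genes from 0.55 to 0.64. With the floor at percentile 75, 26 genes rose, 10 of them of the neutrophil list, and 5 fell. The same floor brought Ccl8 to 1.79, Gzmk to 1.07, Mpo to 1.34, Rgs13 to 1.02, Gzmm to 0.15, Slfn4 to 0.07, Wfdc21 to 0.55, Prtn3 to 0.78 and Cd209a to -0.46, since their lower signals lie under it. With the floor at percentile 25 the activated T cell median was 0.57. With the acinar list kept in, 49 genes fell. At 1.5-fold 380 rose and 208 fell, and at 3-fold 20 rose, 7 of them neutrophil genes, and 6 fell. With several agreeing probe sets required, 6 rose, 0 of them neutrophil genes, and 1 fell. Over members with several measured sets, agreeing or not, the medians were -0.14 for B cell, 0.033 for interferon and 0.48 for inflammatory genes. The median over sets also gave 0.48 for the last, and 0.67 for Msr1. List medians have no value under other fold thresholds. Requiring a signal above the floor at both ages was chosen after seeing the data. It moved no list median beyond 0.143 except that of the acinar list, to -2.70. Signals near the floor limit the ratios named above for that floor.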
